A study of Mus musculus with 6 samples.

Results

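The genes described here encode 4 families of guidance ligands and the 4 families of their receptors, as expressed in mouse primary cardiac fibroblasts, the connective tissue cells of the heart. Members were taken by gene symbol alone, but the families were chosen with earlier results of these data known. They are the ephrins (Efna and Efnb) with the Eph receptors (Epha and Ephb), the semaphorins (Sema3 to Sema7) with the plexins (Plxn), the slits with the robos, and the netrins (Ntn and Ntng) with the Unc5 receptors. The deposited tables list 18059 genes, and 68 matched, of which 37 are ligands and 31 are receptors. Fibroblasts isolated from hearts of C57BL/6 mice aged 1 to 2 weeks were grown in medium with 15% serum and given saline (control, 3 libraries) or PDGF-DD (3 libraries) for 12 hours. PDGF-DD, the dimer of the growth factor PDGF-D, signals mainly through the receptor PDGFRβ, and its dose is labelled 20 µM, an amount very high for a growth factor. According to the protocols all cells, controls included, were from global PDGF-D knockout mice, whereas the genotype field calls the control samples control and the PDGF-DD samples PDGF-D -/-. If that field is right, genotype and treatment cannot be told apart. Reads of Pdgfd itself were counted in every library, at 118, 114 and 91 in control and 69, 72 and 82 with PDGF-DD, and counts over a whole gene do not show whether its edited part was present.

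Guidance molecules were named for steering growing axons, but they also act on connective tissue and vessels, where they set cell repulsion, adhesion, migration and tissue boundaries. Ephrins and Eph receptors sit on the surfaces of touching cells and signal into both. Semaphorins act mainly through plexins, most class 3 members with neuropilins as co-receptors. Secreted slits bind robo receptors, and netrins bind the Unc5 receptors and the DCC family. The netrin-G genes (Ntng) share the name and are counted here as ligands by symbol, but their GPI-anchored products bind other partners. In the heart these families are known for shaping vessels, valves, septa and nerve supply.

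The libraries held between 21221114 and 21371829 estimated read counts, and the 68 genes took between 0.325% and 0.346% of them. Whether replicate libraries stem from different cultures or mice is not labelled, so the p-values reflect the spread among these libraries alone, and that spread may be technical. Control replicate 1 differed most from its group, with a chi-square of counts per degree of freedom of 5.11 and 5.70 against the other controls and of 2.48 between those. Fibroblast markers were abundant, with all 10 listed markers above 1 CPM (counts of a gene scaled to the size of its library, with TMM factors) and a summed level of 46560 to 48647 CPM in control and 41460 to 42206 CPM with PDGF-DD. Most of this sum was collagen RNA. Col1a1, Col1a2 and Col3a1 had means of 20773, 11522 and 11330 CPM in control and 17880, 10543 and 9274 CPM with PDGF-DD. Markers of other cells were also present. By edgeR 6 of the 10 fibroblast markers fell, 1, Pdgfra, rose, and Postn, Ddr2 and Thy1 did not pass. Those of endothelium (8 genes, led by Cdh5) summed to 248 to 265 CPM in control and 229 to 237 CPM with PDGF-DD. Those of pericytes and smooth muscle (8 genes) summed to 443 to 467 and 358 to 365 CPM, those of cardiomyocytes (8 genes, nearly all of it Tnnt2) to 159.7 to 170.1 and 116 to 132 CPM, and those of macrophages (8 genes) to 61.3 to 65.6 and 54.9 to 60.6 CPM. The 8 Schwann and neural markers, mostly Tubb3, summed to 174 to 181 and 153 to 165 CPM, and the 6 epicardial and mesothelial markers to 162 to 167 and 147 to 156 CPM. No listed marker was at 0 in all libraries, but Kcnj8, Fcgr1, 4 neural markers and 5 cardiomyocyte markers (Actn2, Ryr2, Myl2, Tnni3 and Myl7) were under 1 CPM in both groups. Among all tested genes 17.4% fell and 19.1% rose. Of the tested markers 3 of 6 for cardiomyocytes fell, as did 1 of 8 for endothelium. So did 4 of 7 for pericytes and smooth muscle (with 1 higher), 1 of 4 neural and 2 of 6 epicardial ones. None of 8 for macrophages passed (2 at an unadjusted p under 0.05, 0 in DESeq2). The part of these cells in the results below was not tested, and in bulk RNA fewer cells of a type and less RNA per cell cannot be told apart.

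Levels were compared between genes as TPM (the share of a gene among all transcripts of a library), which accounts for transcript length. The netrin receptor gene Unc5b had the highest level of the 68 genes, at 296, 325 and 324 TPM in control and 296, 286 and 301 TPM with PDGF-DD. It was followed by the plexin genes Plxnb2 (186 TPM over all libraries) and Plxna1 (125 TPM). Next came Slit2 (70.5), Ntn4 (69.9) and Epha2 (56.1 TPM). The library ranges of Slit2 (65.5 to 74.8 TPM) and Ntn4 (63.4 to 73.6 TPM) overlapped, so their order is not resolved. Epha2 (44.6 to 69.4 TPM) overlapped both, and its place comes from pooling the groups. In control its mean of 45.4 TPM lay below that of Slit3 (50.7 TPM), and with PDGF-DD above it (66.7 against 35.1 TPM). Slit3, Ephb4, Plxnd1, Efnb2 and Efnb1 had means between 36.7 and 42.9 TPM, and their ranges overlapped except that Ephb4 (38.5 to 44.6 TPM) lay above Efnb1 (34.7 to 38.4 TPM). In all, 19 genes had a mean of at least 10 TPM. Receptor transcripts together exceeded those of the ligands in every library, at 804 to 895 TPM against 406 to 467 TPM. This sum rested on few genes: Unc5b made up 36.5% of the receptor total in control, and Slit2 16.1% of the ligand total. In control replicate 1 both sums were the lowest or second lowest of the 6 libraries (412 TPM for ligands and 804 TPM for receptors). Changes of single genes between the groups are therefore compared on counts. TPM values are used here for levels and for ratios within a library.

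**Figure D1:**
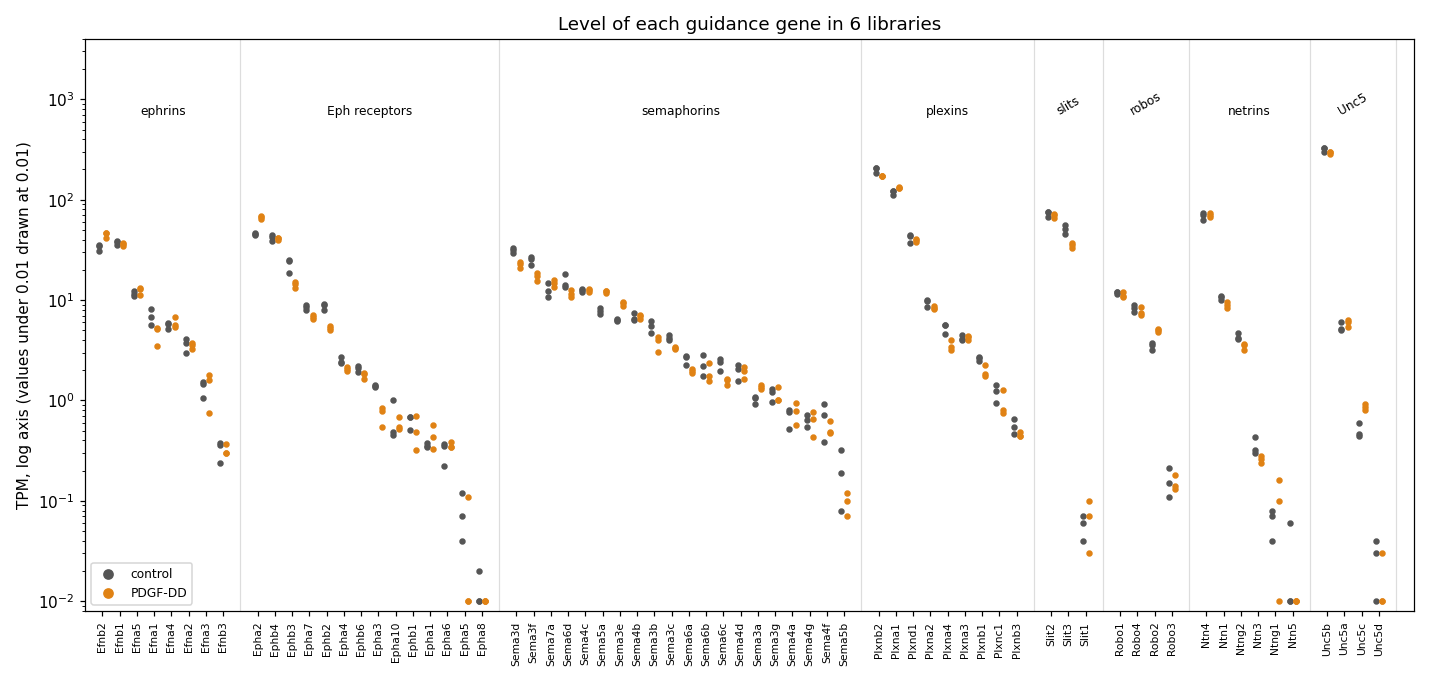
Deposited TPM (log axis) of each of the 68 guidance genes in the 3 control and 3 PDGF-DD libraries, ordered within each family by mean level. Each point is 1 library, and values under 0.01 TPM, including 0, are drawn at 0.01. Unc5b lies near 305 TPM, and within each family the levels span more than the distance between the groups.

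Of the 68 genes, 60 passed the filter on low counts and were tested, and 26 of these (43.3%) differed between the groups, 8 higher and 18 lower with PDGF-DD (quasi-likelihood test of edgeR, with p adjusted by Benjamini-Hochberg over all genes and under 0.05). Among all 13270 genes tested the share was 36.5%, with 19.1% higher and 17.4% lower. The median log2 fold change of the 60 genes was -0.08, against -0.01 over all tested genes. Of 33 tested ligands 4 rose and 10 fell (42.4% called), with a median log2 fold change of -0.05, and of 27 tested receptors 4 rose and 8 fell (44.4% called), with a median of -0.09. These medians depend on single libraries. Without control replicate 1 they were -0.14 for all members, -0.12 for ligands and -0.16 for receptors, and without PDGF-DD replicate 3 they were -0.12, -0.15 and -0.09, so that the ligand median was then the lower one. The ligand median was -0.03 without control replicate 3 and the receptor median -0.13 without control replicate 2. A difference between ligands and receptors was not tested. DESeq2 called 6 of 31 ligands lower, and over all genes it also called fewer lower than edgeR did. In 32 of the 60 genes the groups did not overlap, as in 47.1% of all tested genes, and for each of these the exact two-sided permutation test over libraries gives p = 0.1, the smallest value that 3 against 3 libraries allow. Of the called genes 2 rose by 1.5-fold or more (Unc5c and Sema5a) and 3 fell by as much (Epha3, Ephb2 and Ephb3), where 1.65% and 3.11% of all tested genes did so. The genes too low to test were Epha5, Epha8, Ntn5, Ntng1, Robo3, Sema5b, Slit1 and Unc5d, with between 0 and 13 counts per library.

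**Figure D2:**
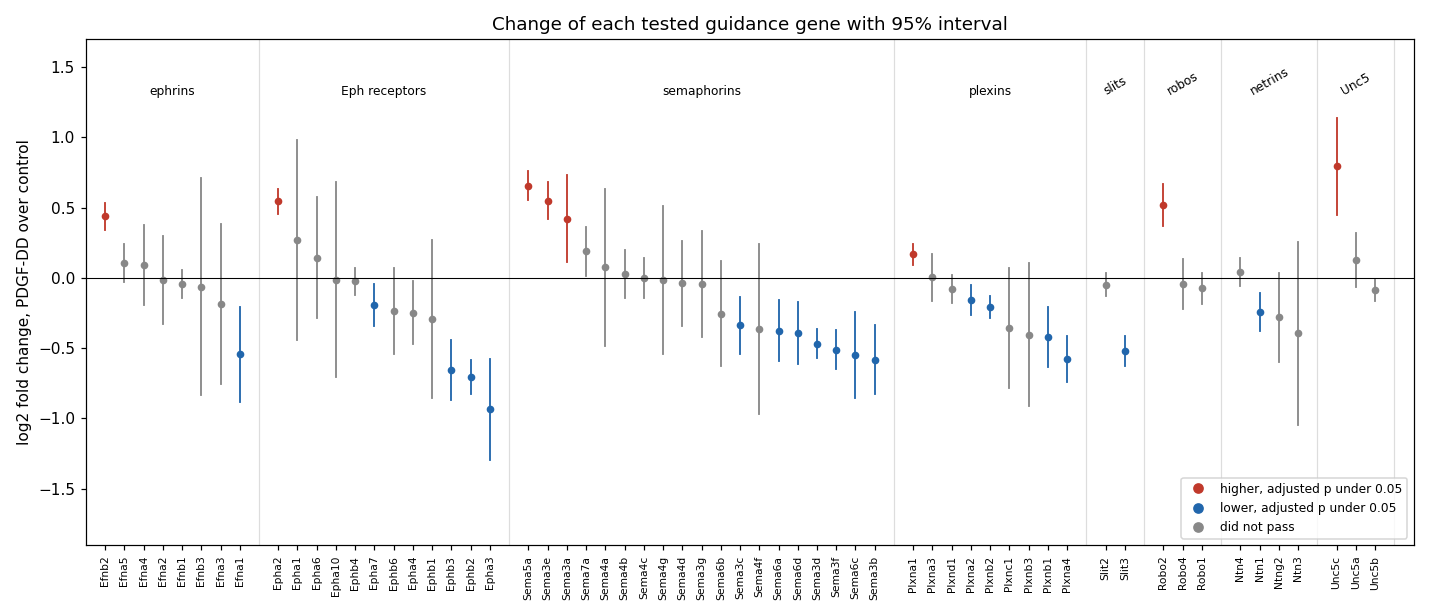
Log2 fold change (PDGF-DD over control) of the 60 tested guidance genes by family, with 95% intervals from edgeR's quasi-likelihood fit over 3 libraries per group. Colour shows whether the adjusted p was under 0.05: 8 called genes lie above 0 and 18 below, and the other 34 genes did not pass.

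Of 8 tested ephrins 1 rose and 1 fell, and of 12 tested Eph receptors 1 rose and 4 fell. Over all tested genes 19.1% rose and 17.4% fell. Efnb2, a transmembrane ligand for EphB receptors and for EphA4, had 66.7, 70.1 and 71.7 CPM in control and 96.7, 89.1 and 96.7 CPM with PDGF-DD. All PDGF-DD libraries lay above all controls, and the log2 fold change was 0.44 (SE 0.05, edgeR adjusted p = 4.01e-08). Its relative Efnb1, of nearly the same level, stood at 53.5, 54.8 and 54.0 CPM and 53.4, 51.4 and 52.7 CPM. All PDGF-DD libraries were slightly lower, but Efnb1 did not pass, and the 95% interval of its log2 fold change ran from -0.14 to 0.05. Of the GPI-anchored ephrin-A ligands, which bind EphA receptors, Efna1 was lower, with 3.68, 4.20 and 5.01 CPM in control and 2.20, 3.32 and 3.31 CPM with PDGF-DD. This fall (log2 fold change -0.54, edgeR adjusted p = 0.0103) rests on 47 to 106 counts per library and did not pass without control replicate 3 (0.0759), without PDGF-DD replicate 1 (0.0969) or in DESeq2 (0.0639), with a range of adjusted p from 0.00193 to 0.0969 over the alternatives. The most abundant ephrin-A gene, Efna5 (log2 fold change 0.11), and Efna2, Efna3, Efna4 and Efnb3 did not pass.

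Epha2, an Eph receptor known for roles in epithelia, vessels and migrating cells, was the receptor of highest level in its family. It had 77.9, 74.3 and 75.6 CPM in control and 112, 107 and 114 CPM with PDGF-DD, a rise without overlap (log2 fold change 0.55 with SE 0.04, edgeR adjusted p = 2.21e-10). EphB receptors, the main partners of the ephrin-B ligands, went the other way or did not pass. Ephb2 fell from 39.2, 41.7 and 42.5 CPM to 26.0, 25.4 and 24.1 CPM (log2 fold change -0.71 with SE 0.06, edgeR adjusted p = 4.8e-10). Ephb3 had 34.5, 44.2 and 43.1 CPM in control and 23.5, 27.7 and 26.1 CPM with PDGF-DD. Its first control library was lower than the other controls but still above every PDGF-DD library (log2 fold change -0.66 with SE 0.10, edgeR adjusted p = 0.000269). Ephb4, the EphB receptor of venous endothelium and the most abundant one here, stood at 74.7, 78.0 and 82.4 CPM and 76.9, 78.9 and 75.3 CPM. The groups overlapped for Ephb4, and the 95% interval of its log2 fold change was -0.12 to 0.07. Among EphA receptors, Epha3 fell by the largest factor of the 60 genes, from 3.49, 3.45 and 3.36 CPM to 2.06, 1.35 and 1.96 CPM (log2 fold change -0.93 with SE 0.17, edgeR adjusted p = 0.000128), at 29 to 74 counts per library. Its 95% interval, -1.29 to -0.57, holds the values of Ephb2 and Ephb3, so this rank is not resolved. The fall of Epha7 was small (log2 fold change -0.19, edgeR adjusted p = 0.0419) and was lost in 7 of 13 alternatives, with adjusted p from 0.0179 to 0.193. Epha1, Epha4, Epha6, Epha10, Ephb1 and Ephb6 did not pass, and their log2 fold changes lay between -0.29 and 0.27.

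The bases before the start sites of Efnb2 and Epha2, which rose, and of Ephb3, which fell, are shown. Efnb2 and its receptor gene Ephb3 moved apart, and Epha2 is the Eph receptor gene that rose. Each run is the 250 bases upstream of the RefSeq start in assembly GRCm38.p6, read 5′ to 3′ on the gene's strand. Capitals mark GGGCGG, the core of the GC box bound by SP factors, and GGAATG, the core bound by TEAD factors, on either strand.
Efnb2 (chr8:8661243-8661492, minus strand): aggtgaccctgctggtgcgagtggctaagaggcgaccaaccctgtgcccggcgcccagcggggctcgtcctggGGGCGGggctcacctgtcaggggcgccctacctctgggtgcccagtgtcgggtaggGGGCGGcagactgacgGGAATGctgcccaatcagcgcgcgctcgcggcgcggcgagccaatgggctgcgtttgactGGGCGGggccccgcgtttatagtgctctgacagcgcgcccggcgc
Epha2 (chr4:141300971-141301220, plus strand): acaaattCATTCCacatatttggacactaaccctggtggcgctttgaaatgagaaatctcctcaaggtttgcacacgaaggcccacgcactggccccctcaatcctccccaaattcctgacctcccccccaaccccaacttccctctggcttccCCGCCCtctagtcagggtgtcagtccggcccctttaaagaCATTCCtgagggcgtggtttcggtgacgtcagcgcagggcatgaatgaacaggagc
Ephb3 (chr16:21204545-21204794, plus strand): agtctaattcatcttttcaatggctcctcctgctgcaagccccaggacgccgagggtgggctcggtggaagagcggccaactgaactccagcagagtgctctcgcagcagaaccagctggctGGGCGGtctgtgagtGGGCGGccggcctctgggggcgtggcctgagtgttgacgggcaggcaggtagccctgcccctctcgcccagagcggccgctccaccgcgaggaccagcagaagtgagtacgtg
Epha2 held 3 matches, Efnb2 4 and Ephb3 2. Ephb2, which also fell while Efnb2 rose, is not shown, and its 300-base promoter held none of the motifs searched. GGGCGG occurred in the 300-base promoters of 43 of the 59 members in the RefSeq table (72.9%) and of 68% of the tested genes listed there, and GGAATG in 10 of 59 (16.9%) and 14.6%. Of the other motifs searched on both strands, TGANTCA (AP-1) was found in 3 of the 59 members, Sema4c, Sema4d and Sema6b, none of which passed the test, against 6.3% of tested genes. CACGTG (the E-box) was found in 5 members (8.47%, against 11.6%). GTAAACA (FoxO) and TTTNGCGC (E2F) occurred in 3.08% and 2.78% of tested genes and in no member's window. Overlapping matches were counted separately, and a match describes the letters only.

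Semaphorins, the largest family, had 10 of 19 tested genes called, 3 higher and 7 lower, where 36.5% of all tested genes were called. Sema5a, a transmembrane semaphorin with thrombospondin repeats that can attract or repel cells, rose most, from 34.9, 38.1 and 35.6 CPM to 57.5, 56.0 and 57.6 CPM. The libraries of each group lay close together and far from the other group (log2 fold change 0.66 with SE 0.05, edgeR adjusted p = 1.54e-10). Class 3 semaphorins are secreted and mostly repulsive, and 6 of 7 were called, in both directions. No class was tested as a set. Sema3e, the ligand of plexin D1 in vessel patterning, had 19.5, 18.2 and 19.2 CPM in control and 28.1, 26.8 and 28.4 CPM with PDGF-DD (log2 fold change 0.55 with SE 0.06, edgeR adjusted p = 1.92e-07). Sema3a, the classical repellent of sympathetic and sensory axons, was at 2.69, 2.64 and 2.41 CPM and 3.28, 3.46 and 3.64 CPM. The groups did not overlap, but the call (log2 fold change 0.42, edgeR adjusted p = 0.0301) was lost in 5 of 13 alternatives, with adjusted p from 0.0258 to 0.172. It was lost in DESeq2 and on leaving out replicate 2 or 3 of either group.

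The semaphorin of highest level, Sema3d, a guidance cue of endothelial and neural crest cells, fell from 86.1, 93.1 and 87.6 CPM to 65.2, 60.3 and 67.5 CPM (log2 fold change -0.47 with SE 0.05, edgeR adjusted p = 2.75e-08). Sema3f, which acts through neuropilin 2 and is known to restrain vessel growth, had 35.9, 41.2 and 39.6 CPM in control and 29.3, 28.0 and 24.7 CPM with PDGF-DD (log2 fold change -0.51 with SE 0.07, edgeR adjusted p = 1.42e-06). Both genes were lower in every PDGF-DD library than in any control. Sema3b, a related ligand, fell from 6.69, 7.74 and 7.75 CPM to 5.11, 5.61 and 4.10 CPM (log2 fold change -0.58, edgeR adjusted p = 0.000388), and Sema3c, needed for division of the cardiac outflow tract, fell by 0.34 on the log2 scale, a call lost in DESeq2 (adjusted p = 0.0745) and without control replicate 1 (0.058), in a range of 0.00556 to 0.0745. Sema3g did not pass.

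Class 6 semaphorins are transmembrane ligands of class A plexins, and 3 of 4 fell, where 17.4% of all tested genes fell. Sema6c had 3.53, 4.06 and 4.30 CPM in control and 2.72, 2.52 and 2.89 CPM with PDGF-DD (log2 fold change -0.55, edgeR adjusted p = 0.00457, and 0.0535 in DESeq2, in a range of 0.00246 to 0.0535). Sema6d, a regulator of heart tube and trabecular growth, had 38.2, 37.8 and 48.4 CPM and 31.4, 29.6 and 33.8 CPM, with a wide spread between controls (log2 fold change -0.39, edgeR adjusted p = 0.011). Without PDGF-DD replicate 1 or 2 its adjusted p was 0.0549 and 0.0535, and the lowest over the alternatives was 2.53e-05. Sema6a fell by 0.38 on the log2 scale (edgeR adjusted p = 0.00659, and 0.0635 in DESeq2, in a range of 0.00229 to 0.0635), and Sema6b did not pass. None of the 6 tested class 4 semaphorins, which signal mainly through B-type plexins, was called by edgeR or DESeq2, and none had an unadjusted edgeR p under 0.05. For Sema4b and Sema4c the 95% intervals of the log2 fold change ran from -0.15 to 0.20 and from -0.14 to 0.14. The other class 4 genes had group means under 4 CPM, and their intervals were wider. Sema7a, the GPI-anchored semaphorin, had 15.1, 20.1 and 16.5 CPM in control and 19.8, 18.9 and 20.2 CPM with PDGF-DD. Control replicate 2 lay within the PDGF-DD range, and Sema7a did not pass (edgeR adjusted p = 0.0844), although it did without that library (0.00505) and without the low-count filter (0.0372), in a range of 0.00505 to 0.33.

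Sema3a and Sema3d are neighbours on the chromosome, with no protein-coding gene between them in the RefSeq table, and moved in opposite directions. Their upstream sequences are shown as a pair for that reason, with the same marking as above.
Sema3a (chr5:13396534-13396783, plus strand): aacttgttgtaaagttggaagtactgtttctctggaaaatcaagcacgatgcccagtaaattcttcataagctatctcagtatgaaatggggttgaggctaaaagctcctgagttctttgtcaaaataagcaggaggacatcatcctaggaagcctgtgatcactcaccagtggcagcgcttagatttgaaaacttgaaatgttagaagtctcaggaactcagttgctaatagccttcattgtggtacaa
Sema3d (chr5:12382916-12383165, plus strand): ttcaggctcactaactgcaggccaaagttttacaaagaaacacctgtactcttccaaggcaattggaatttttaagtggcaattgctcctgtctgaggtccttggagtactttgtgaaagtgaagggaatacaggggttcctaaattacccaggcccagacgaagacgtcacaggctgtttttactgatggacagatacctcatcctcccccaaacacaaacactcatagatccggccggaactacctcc
Neither run held GGGCGG or GGAATG on either strand, so they have no capitals. Robo1 and Robo2, and Efna1, Efna3 and Efna4, are also neighbours, and in each of these sets 1 gene was called. Robo3 and Robo4 are neighbours too, but Robo4 did not pass and Robo3 was too low to test.

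**Figure D3:**
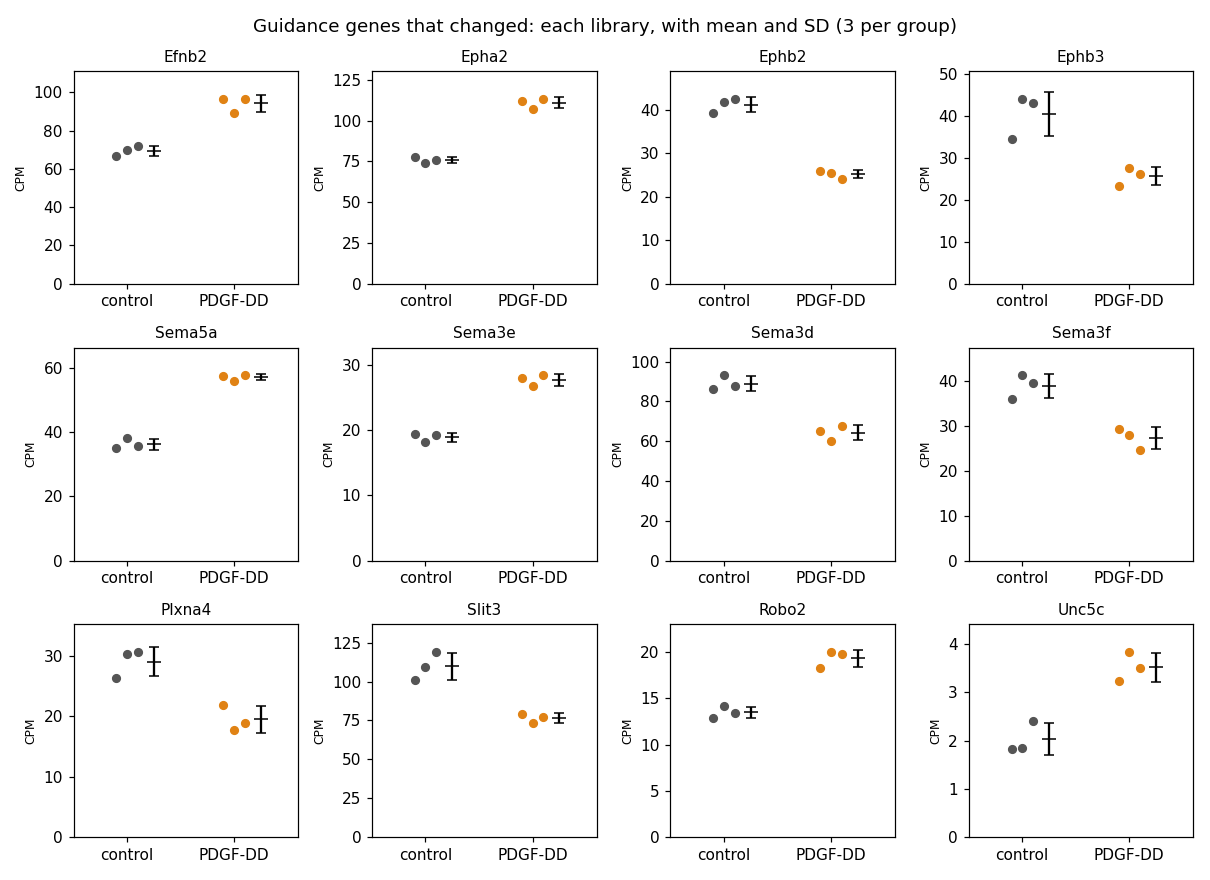
CPM of 12 called guidance genes in each of the 3 control and 3 PDGF-DD libraries, with the mean and SD of each group as a bar. Each vertical axis starts at 0 and has its own scale. In all 12 panels the groups do not overlap. Efnb2, Epha2, Sema5a, Sema3e, Robo2 and Unc5c are higher with PDGF-DD, and Ephb2, Ephb3, Sema3d, Sema3f, Plxna4 and Slit3 are lower. The 12 were picked from the called genes, so the separation came with the choice. Among all tested genes the groups did not overlap in 47.1%.

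Plexins, the semaphorin receptors, had 5 of 9 genes called, where 36.5% of all tested genes were called. The 2 most abundant moved apart by small amounts. Plxna1, a receptor for class 3 and class 6 semaphorins, had 448, 469.5 and 473 CPM in control and 516, 521 and 524 CPM with PDGF-DD (log2 fold change 0.17 with SE 0.04, edgeR adjusted p = 0.000825). Plxnb2, a receptor for class 4 semaphorins, fell from 536, 567 and 569 CPM to 478, 489.7 and 481 CPM (log2 fold change -0.21 with SE 0.04, edgeR adjusted p = 9.44e-05). Neither pair of groups overlapped. Plxna4, a receptor in Sema3a and Sema6a signalling, fell most, from 26.3, 30.2 and 30.6 CPM to 21.9, 17.7 and 18.9 CPM (log2 fold change -0.58 with SE 0.08, edgeR adjusted p = 3.77e-06). Plxnb1, the receptor of Sema4d, had 9.28, 9.82 and 9.41 CPM in control and 6.47, 6.54 and 8.30 CPM with PDGF-DD (log2 fold change -0.42, edgeR adjusted p = 0.00213). Plxna2 fell by 0.16 on the log2 scale (edgeR adjusted p = 0.0203), a call lost in 5 of 13 alternatives with adjusted p from 0.0048 to 0.115. These were DESeq2 and the fits that left out replicate 2 or 3 of either group. Plxnd1, the Sema3e receptor of endothelium, stood at 115, 127 and 133 CPM and 122, 121 and 113 CPM and did not pass (interval of the log2 fold change from -0.18 to 0.02), although it did as lower without control replicate 1 (adjusted p = 0.0183, in a range of 0.0183 to 0.676). Plxna3, Plxnb3 and Plxnc1 did not pass with all libraries. Plxnc1 did as lower without PDGF-DD replicate 2 (adjusted p = 0.0123, and up to 0.501 elsewhere). Among called members, exons of antisense genes overlap those of Plxna1, Plxna4 and Plxnb1 in GENCODE M21. Since the strand setting of the counting is not given in the sources used here, reads of those genes cannot be told apart from theirs. The same holds for Unc5c. Several members that did not pass also share exon bases with other genes. Ntn3, Ntng2, Plxnc1 and Sema4a do so with a gene on the same strand, and Epha1 with Zyx on the other.

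Of 2 tested slits 1 fell, and of 3 tested robos 1 rose, where 36.5% of all tested genes were called. Slit2 and Slit3 are large secreted proteins that repel cells bearing robo receptors. Slit2, the more abundant, had 299, 318 and 319 CPM in control and 304, 290.1 and 310.0 CPM with PDGF-DD. The groups overlapped, and the interval of the log2 fold change was -0.13 to 0.03. Slit3, known from diaphragm and heart development and from fibrillar collagen deposition by fibroblasts, fell from 101, 109 and 119 CPM to 79.3, 73.1 and 76.9 CPM (log2 fold change -0.52 with SE 0.05, edgeR adjusted p = 6.59e-08). Every PDGF-DD library was below every control. Robo2 rose from 12.9, 14.1 and 13.4 CPM to 18.2, 20.0 and 19.7 CPM (log2 fold change 0.52 with SE 0.07, edgeR adjusted p = 2.61e-06). Its neighbour Robo1, the more abundant robo receptor, stood at 39.8, 39.6 and 39.3 CPM and 40.0, 36.2 and 36.5 CPM and did not pass (interval from -0.19 to 0.04). Robo4, a gene of endothelium, had 11.5, 11.4 and 11.9 CPM and 11.8, 12.0 and 9.98 CPM, with overlapping groups. Of the 8 endothelial markers, Tek fell and the other 7 did not pass (edgeR, with 2 at an unadjusted p under 0.05, and 1 called by DESeq2).

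The upstream bases of Slit3 are shown because it was the slit whose level changed, marked as above.
Slit3 (chr11:35121206-35121455, plus strand): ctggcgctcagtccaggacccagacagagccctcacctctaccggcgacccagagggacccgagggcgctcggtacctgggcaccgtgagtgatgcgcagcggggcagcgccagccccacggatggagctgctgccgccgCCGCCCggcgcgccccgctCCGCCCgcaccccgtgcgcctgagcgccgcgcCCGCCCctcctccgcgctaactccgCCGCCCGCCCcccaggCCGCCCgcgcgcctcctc
All 6 matches are GGGCGG on the reverse strand, and 2 of them overlap.

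Of 4 tested netrins 1 fell, and of 3 tested Unc5 receptors 1 rose, where 36.5% of all tested genes were called. Ntn4, a netrin of basement membranes and the most abundant one, had 67.8, 74.7 and 72.1 CPM in control and 76.0, 71.7 and 73.0 CPM with PDGF-DD, a difference that did not pass (interval from -0.06 to 0.14). Ntn1, the founding netrin, which attracts or repels depending on the receptor, fell from 25.8, 27.1 and 26.5 CPM to 23.6, 21.2 and 22.2 CPM (log2 fold change -0.24 with SE 0.06, edgeR adjusted p = 0.0039). Its groups did not overlap. Ntn3 and Ntng2 did not pass. The repulsive netrin receptor Unc5b, the most abundant guidance gene, had 780.2, 813 and 812 CPM in control and 754, 743 and 768 CPM with PDGF-DD. Every PDGF-DD library was lower, but the change was small (interval of the log2 fold change from -0.16 to -0.01) and did not pass (edgeR adjusted p = 0.0632). It passed under upper-quartile scaling (0.02) and without control replicate 1 (0.0164), in a range of 0.0164 to 0.231. Unc5a had 8.67, 9.92 and 8.51 CPM and 10.4, 9.16 and 10.0 CPM and did not pass. Unc5c, of the same receptor family, rose by the largest factor of the 60 genes, from 1.84, 1.84 and 2.41 CPM to 3.24, 3.83 and 3.50 CPM, at 39 to 82 counts per library (log2 fold change 0.79 with SE 0.17, edgeR adjusted p = 0.000468).

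By the way the ligand is presented, secreted ligands (class 3 semaphorins, slits and netrins) had 2 of 12 tested genes higher and 6 lower (median log2 fold change -0.29). Transmembrane ligands had 2 of 14 higher and 3 lower (median -0.04). Among 7 tested GPI-anchored ligands only Efna1 was called by edgeR, with 2 at an unadjusted p under 0.05 and none called by DESeq2 (median -0.01). Over all tested genes 19.1% were higher and 17.4% lower. Whether these classes differ was not tested. By level, 9 of 19 tested members with a mean of at least 10 TPM were called, and 17 of 41 below it, where 36.5% of all tested genes were called.

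Ratios of ligand to receptor transcripts within each library put these changes side by side for known binding partners. For Efnb2 and Ephb4, the pair that marks arterial and venous endothelium, the ligand was below the receptor in every control (0.805, 0.810 and 0.786) and above it in every PDGF-DD library (1.13, 1.02 and 1.16). The Efnb2 to Ephb2 ratio was 3.90, 3.84 and 3.86 in control and 8.51, 7.998 and 9.15 with PDGF-DD, a mean that was 2.21 times as high. For Efna1 and Epha2 it went the other way, from 0.127, 0.151 and 0.175 to 0.0507, 0.0810 and 0.0787. The Slit3 to Robo2 ratio fell from 14.2, 13.8 and 15.8 to 7.67, 6.53 and 6.93, while the Slit2 to Robo1 ratio overlapped between the groups (5.74, 6.14 and 6.19 against 5.81, 6.12 and 6.48). Sema3e stood at 0.170, 0.144 and 0.146 times the Plxnd1 level in control and 0.231, 0.224 and 0.253 times with PDGF-DD. The mean ratio of Ntn1 to Unc5c was 21.6 in control and 10.4 with PDGF-DD, while Ntn1 was far below Unc5b in every library, at a mean ratio of 0.0337 in control and 0.0303 with PDGF-DD. These ratios restate the changes of the genes in each pair and were not tested as a set. The pairs were not among the planned comparisons. Each pair quoted except Slit2 and Robo1 holds a called gene, so a difference between the groups came with the choice of pair. Transcript ratios need not follow those of the proteins.

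**Figure D4:**
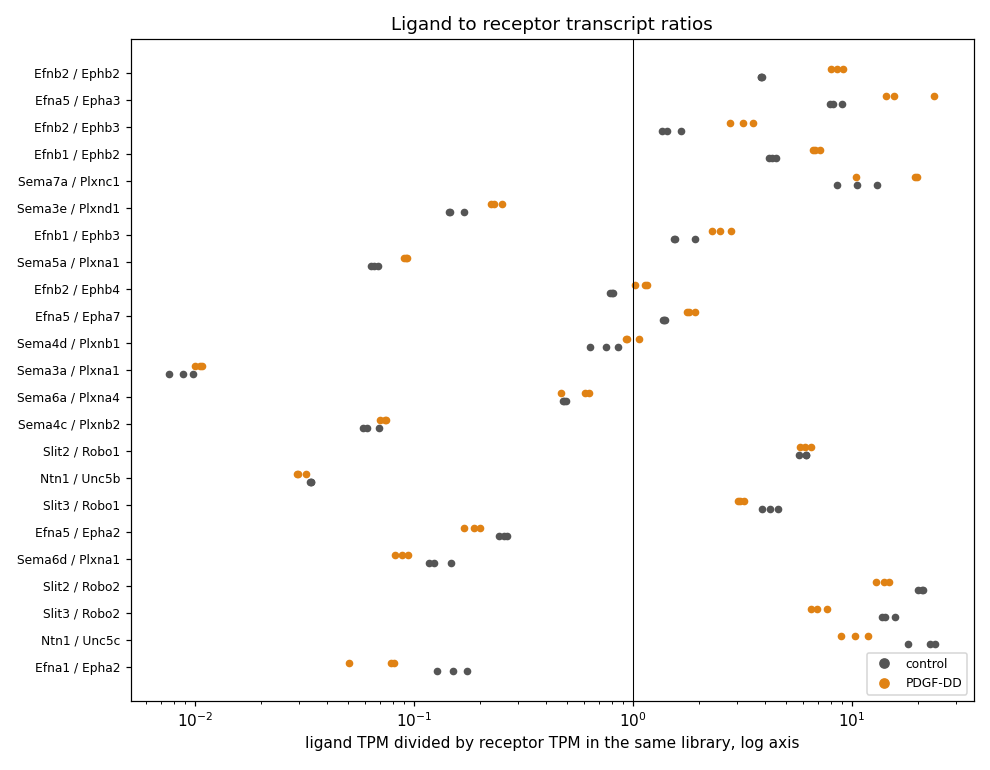
Ratio of ligand TPM to receptor TPM (log axis) for 23 ligand and receptor pairs, with each of the 3 control and 3 PDGF-DD libraries as a point. The vertical line marks equal levels. The ratio of Efnb2 to Ephb4 lies below it in the controls and above it with PDGF-DD, and several pairs share a gene and so move together.

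Members that did not pass differ in how closely their change is bounded. For 12 of the 34, the 95% interval of the log2 fold change lay within 0.3 either way. These were Efna5, Efnb1, Ephb4, Ntn4, Plxna3, Plxnd1, Robo1, Robo4, Sema4b, Sema4c, Slit2 and Unc5b, all with a mean of at least 11.4 CPM. For the other 22, with means up to 18.4 CPM, the interval reached past 0.3 on at least 1 side.

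Genes that work with these families also changed in both directions, where 36.5% of all tested genes were called. Of 17 tested co-receptors and partners, 4 rose and 4 fell (47.1% called). Nrp1, the neuropilin that binds Sema3a, rose from 63.5, 69.5 and 66.2 CPM to 90.2, 82.5 and 96.4 CPM (log2 fold change 0.43), and Gpc1, a heparan sulfate proteoglycan that binds slits, rose by 0.35. Neo1, the DCC family receptor for netrins and RGM proteins, fell from 215, 237 and 232 CPM to 191, 182 and 188 CPM (log2 fold change -0.29), and its ligand Rgma fell by 0.45. Dag1, dystroglycan, which binds slits, and Itga1, the collagen-binding partner of the Sema7a receptor subunit Itgb1, had log2 fold changes of -0.46 and -0.63. Dcc itself was too low to test.

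Of 50 tested signal transducers, 11 rose and 10 fell (42% called, near the share of all genes). Ngef, which encodes ephexin, the exchange factor that links EphA receptors to RhoA, rose from 5.00, 4.39 and 5.29 CPM to 11.4, 11.4 and 10.1 CPM (log2 fold change 1.16 with SE 0.10, edgeR adjusted p = 1.83e-09). Pak1, a kinase downstream of Rac and Cdc42 in semaphorin, slit and netrin signalling, rose from 18.3, 16.4 and 18.9 CPM to 36.8, 37.6 and 39.5 CPM (log2 fold change 1.08). Rasa1, the Ras GTPase-activating protein that binds EphB receptors, rose by 0.63. Ablim1, an actin-binding protein of netrin signalling, fell from 77.2, 83.2 and 81.2 CPM to 40.4, 44.6 and 40.6 CPM (log2 fold change -0.94), Srgap1, a slit-robo GTPase-activating protein, fell by 0.45 and Vav3 by 0.40. Of 17 tested cleaving enzymes and related matrix genes, 3 rose and 6 fell (52.9% called). Tll1, a tolloid-like protease, rose by 0.92 and Adam12 by 0.44, while Pcsk5, Adamts1, Hspg2 (perlecan) and Mmp14 had log2 fold changes of -0.41, -0.32, -0.31 and -0.30. The metalloprotease gene Adam10, which sheds ephrins, was among the genes that fell.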

How the data were processed

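RNA of 6 samples was sequenced as messenger RNA libraries. HISAT2 2.0.4, Bowtie2 2.2.5, RSEM 1.2.12, DESeq2 1.4.5 and build mm9 are named without roles in the submitters' processing notes, while the sources used here give neither annotation nor filters nor strandedness. Per the file headers, the authors deposited per library and gene an estimated count (not normalized), an FPKM value (per kilobase of transcript and depth) and a TPM value (scaled to the same sum in each library).

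Estimated counts were rounded, filtered with filterByExpr (13270 of 18059 genes kept), scaled with TMM and tested in edgeR 4.0.16 under R 4.3.3 by quasi-likelihood F test (robust, two-sided, Benjamini-Hochberg over all tested genes, threshold 0.05). The common biological coefficient of variation was 3.96%. Standard errors are the log2 fold change divided by the square root of F. The deposited TPM values were used for levels and ratios. Ranks by FPKM are no separate check, since both units differ by 1 factor per library. DESeq2 1.42.0 was an alternative.

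Members, lists and tests were chosen with earlier results of these data known. Values per library are given for called members with an absolute log2 fold change of at least 0.4 and a mean of at least 1 CPM, the 2 most abundant of each family and the 10 smallest p. From each other list up to 6 called genes of at least 5 CPM with the largest change are named. The values of Plxnd1, Sema6d and Sema7a, and the naming of Adam10 and Dcc, were added after their values were seen, as was the bound on intervals of genes that did not pass. Promoters are RefSeq's, in assembly GRCm38.p6, from 250 bases before to 50 after a start, and 59 of 68 members matched by gene ID. Samples were not treated as pairs in the main fit.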

Additional observations from a re-analysis of the deposited data

How the results depend on the processing

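Of the 26 called guidance genes 18 were called in all 13 alternatives, 8 lost the call in at least 1, and none changed sign. Of the 34 others 4 were called in at least 1. Across scalings, filters, DESeq2 and the replicate block, 7 to 9 members were higher and 12 to 19 lower. The number of ligands called lower was 6 of 31 in DESeq2 against 10 of 33. The drop was not particular to ligands. Over all genes DESeq2 also called fewer higher and fewer lower than edgeR, with 12756 genes tested against 13270. The cause of these smaller counts was not tested. Leaving out each library in turn gave 7 to 8 members higher and 15 to 19 lower, and 2147 to 2643 and 1729 to 2374 of all genes. Median log2 fold changes ranged from -0.14 to -0.05 for members, -0.15 to -0.03 for ligands and -0.16 to -0.08 for receptors. The receptor median was -0.16 with the stricter CPM filter and -0.15 without a filter and in DESeq2, against -0.09. Scaling moved the median of all genes by at most 0.02 (log2). Same-numbered samples deviated from their group means with correlations of -0.12, -0.17 and -0.04. These show no shared deviation by number, but 3 libraries per group cannot settle whether samples were handled in pairs. With the replicate block 8 members were higher and 17 lower, Epha7 being the call lost (adjusted p = 0.057). Among the called genes Epha3, Sema3a, Unc5c, Sema6c and Efna1 have the fewest counts, at most 106 in any library, and 8 members were too low to test.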
